A study of Mus musculus with 12 samples.

Results

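Peritoneal macrophages of mice lacking CD36 (CD36 KO) were set against those of wild-type mice (WT), both in control medium. These groups hold 6 of the 12 libraries of the series, 3 of CD36 KO and 3 of WT, and each library was placed by its title. Mice of both genotypes are labelled C57BL/6, and the macrophages of both were kept in RPMI1640 with 10% FBS before total RNA was extracted. The other 6 libraries, 3 of each genotype, were treated for 8 h with 20 µg/ml of oxLDL, oxidized low-density lipoprotein, and serve here only as a second reading of the genotype difference. CD36 is the only gene the labels name as altered in either group. The labels do not state which stretch of Cd36 was deleted, from where the WT mice were obtained, how old the mice were and how their peritoneal cells were purified. Nor do they state whether the 3 replicates of a group were separate mice or dishes, so a p-value here measures the spread of these libraries, which may be technical.

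CD36 is a class B scavenger receptor of the plasma membrane. It carries long-chain fatty acids into cells, binds oxidized lipoproteins, apoptotic cells and microbial lipids, and signals through Src-family kinases and together with Toll-like receptors. In macrophages its gene is a target of the nuclear receptor PPARγ, and uptake of oxLDL through CD36 is a classical route to the lipid-laden foam cell of atherosclerosis.

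The genotypes differed widely before any oxLDL was given. Of 15612 genes tested, 6730 (43.1%) were called at an edgeR adjusted p under 0.05. The 3502 genes higher in CD36 KO (22.4%) and the 3228 lower ones (20.7%) were similar in number, and 55.5% of all calls were smaller than 0.5 on the log2 scale. Differences of at least 2-fold were fewer and mostly upward: 1552 genes (9.94%), of which 1393 (8.92%) were higher and 159 (1.02%) lower in CD36 KO. Among the 1393 higher genes, 1041 (74.7%) had a mean under 5 CPM, the unit of level used throughout (a gene's count scaled to library size). The groups did not overlap for 8840 genes (56.6%).

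Depth was 36667298, 35257762 and 38237421 counts in the CD36 KO libraries, against 44409108, 41382615 and 39579947 in the WT libraries. The log2 levels of library pairs correlated at 0.990 to 0.996 within a genotype, against 0.965 to 0.982 between genotypes, across genes. CD36 KO replicate 2 stood somewhat apart. It was the highest of the 3 CD36 KO libraries for 1020 (73.2%) of the 1393 genes at least 2-fold higher, against 35.1% of all genes tested. Without it, in a fit chosen after seeing the data, 1164 genes were at least 2-fold higher and 184 at least 2-fold lower. The spread over the 6 libraries was small (biological coefficient of variation 0.0833), and it was 0.213 when all 12 libraries shared 1 fit. That fit called 1863 of 16281 genes (11.4%), 1452 higher (8.92%) and 411 lower (2.52%), so its counts are given beside those of the gene lists below.

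**Figure D1:**
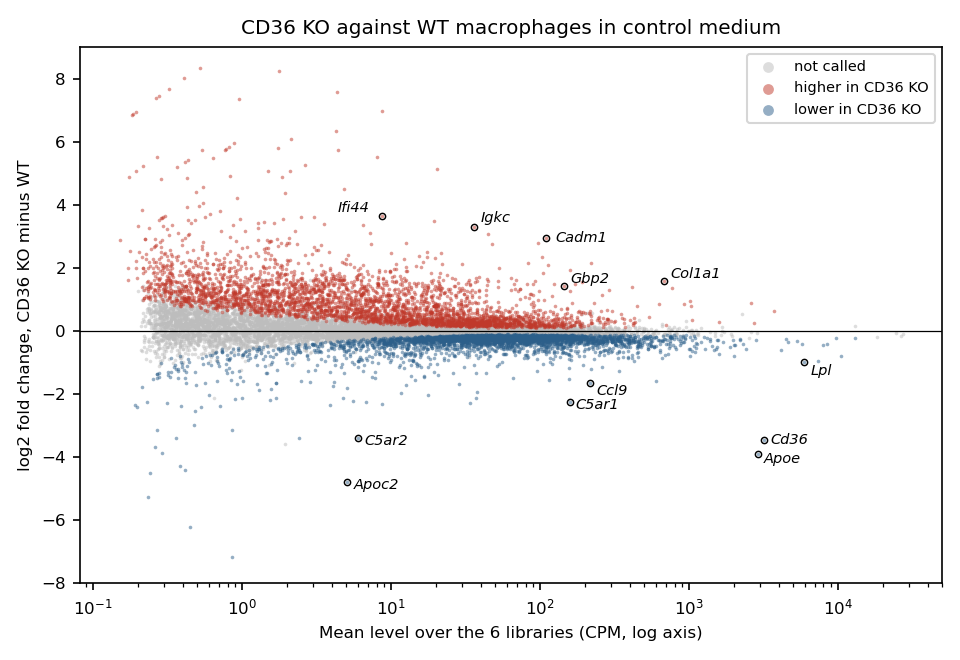
Each point is 1 of the 15612 genes tested, with its mean level over the 6 control-medium libraries on the x axis (CPM, log axis) and its log2 fold change, CD36 KO minus WT, on the y axis. Red genes were higher and blue genes lower in CD36 KO at an edgeR adjusted p under 0.05; Cd36 and Apoe stand apart at the bottom among abundant genes, and most of the largest positive values belong to genes of low level.

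Cd36 itself matched the labels. The gene (ENSMUSG00000002944, chr5:17781690-17888801 on the minus strand, GRCm38) had 534, 499 and 559.7 CPM in the CD36 KO libraries, against 5775, 5856 and 5978 CPM in the WT libraries. All 3 CD36 KO libraries lay far below all 3 WT libraries. The log2 fold change was -3.47 ± 0.06 (SE, edgeR adjusted p = 4.57e-08), and the CD36 KO mean was 9.04% of the WT mean. Some Cd36 reads therefore remained in CD36 KO cells, and their position within the gene cannot be read from counts per gene.

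Apoe, which encodes the lipid-carrying apolipoprotein E secreted by macrophages, fell more than Cd36. It lies on another chromosome (chr7:19696109-19699188, minus strand) and had 358, 353 and 379.8 CPM in CD36 KO, against 5531, 5413 and 5371 CPM in WT. The replicates were tight in both genotypes and the groups lay far apart. Its log2 fold change was -3.902 ± 0.06 (SE, edgeR adjusted p = 1.49e-08), a 14.95-fold lower level in CD36 KO. Apoc2, the neighbouring gene of the lipoprotein lipase cofactor apolipoprotein C-II, had 0.525, 0.289 and 0.255 CPM in CD36 KO, against 9.73, 10.4 and 9.34 CPM in WT (log2 fold change -4.78 ± 0.20, SE). It too was far lower in all 3 CD36 KO libraries.

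The receptors for the complement fragment C5a lie a few Mb from Apoe and also fell. C5ar1, the signalling C5a receptor, had 49.04, 62.8 and 51.7 CPM in CD36 KO, against 258, 259.8 and 266 CPM in WT (log2 fold change -2.26 ± 0.09, SE). C5ar2, the second C5a receptor, had 0.972, 0.893 and 1.25 CPM in CD36 KO, against 11.1, 10.5 and 11.3 CPM in WT (log2 fold change -3.39 ± 0.13, SE). In both genes every CD36 KO library was far below every WT library. Further along the same stretch of chromosome 7, Ptgir, the prostacyclin receptor, had 7.33, 6.88 and 7.71 CPM in CD36 KO, against 20.5, 21.96 and 22.02 CPM in WT, and Plaur, the urokinase receptor, had 101, 90.5 and 99.7 CPM in CD36 KO, against 212, 214 and 229 CPM in WT. Within 5 Mb of Apoe, a window chosen after these values were seen, 58 of 96 tested genes (60.4%) were called, against 43.1% of all genes, and 23 (24.0%) differed at least 2-fold, against 9.94% of all genes. Of those 23 genes, 15 were higher and 8 were lower in CD36 KO. The 8 were Apoe's neighbours Apoc2, Ptgir, Plaur, C5ar1, C5ar2 and Ccdc61 with Gm26473 and 9330104G04Rik, and Apoe itself is counted apart from them. Within 10 Mb of Apoe, the window used for Cd36 below, the shares were nearer those of all genes. There 112 of 228 tested genes (49.1%) were called and 29 (12.7%) differed at least 2-fold.

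Within 10 Mb of Cd36, 34 of 79 tested genes (43.0%) were called, Cd36 not counted, against 43.1% of all genes. At least 2-fold differences were found for 13 of the 79 (16.5%), against 9.94% of all genes, and 11 of the 13 were higher in CD36 KO. Abcb4, a phospholipid transporter, fell to 2.18, 1.73 and 2.19 CPM in CD36 KO, against 6.399, 6.62 and 5.598 CPM in WT (log2 fold change -1.61 ± 0.14, SE). Asic3, an acid-sensing ion channel, rose to 3.13, 4.33 and 3.03 CPM in CD36 KO, against 0.791, 0.7102 and 0.673 CPM in WT (log2 fold change 2.26 ± 0.20, SE). Smaller differences were found for the multidrug transporter gene Abcb1b (log2 fold change 0.44 ± 0.04, SE) and for Nub1 (log2 fold change -0.44 ± 0.05, SE). The calcium channel subunit gene Cacna2d1 had low levels of 4.96, 6.41 and 5.07 CPM in CD36 KO, against 2.37, 2.004 and 1.75 CPM in WT.

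**Figure D2:**
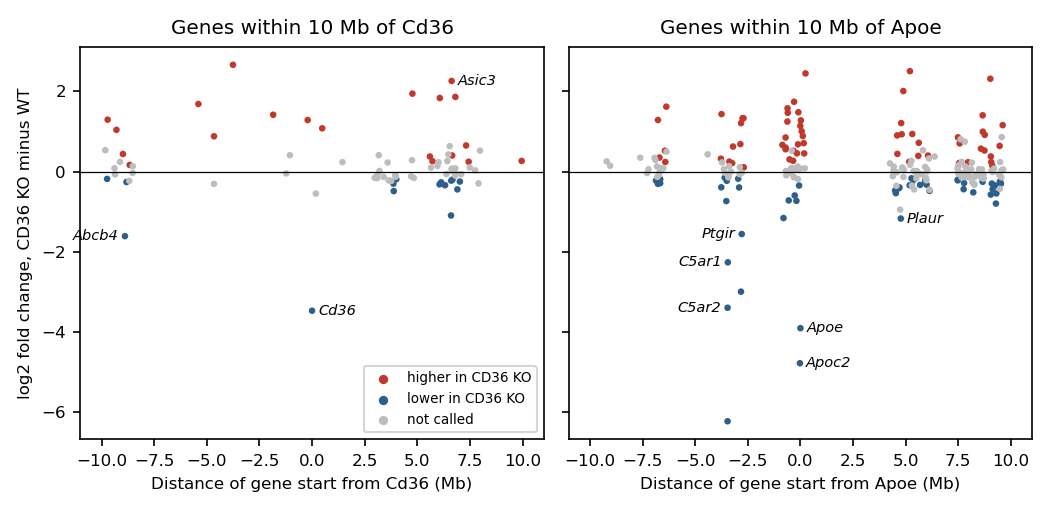
Log2 fold change, CD36 KO minus WT, of each tested gene within 10 Mb of Cd36 (left) and of Apoe (right), plotted by the distance of its start from that gene in Mb. Red genes were higher, blue genes lower in CD36 KO and grey genes not called; near Apoe several blue genes lie below -1, and near Cd36 only Cd36 itself lies below -2.

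**Figure D3:**
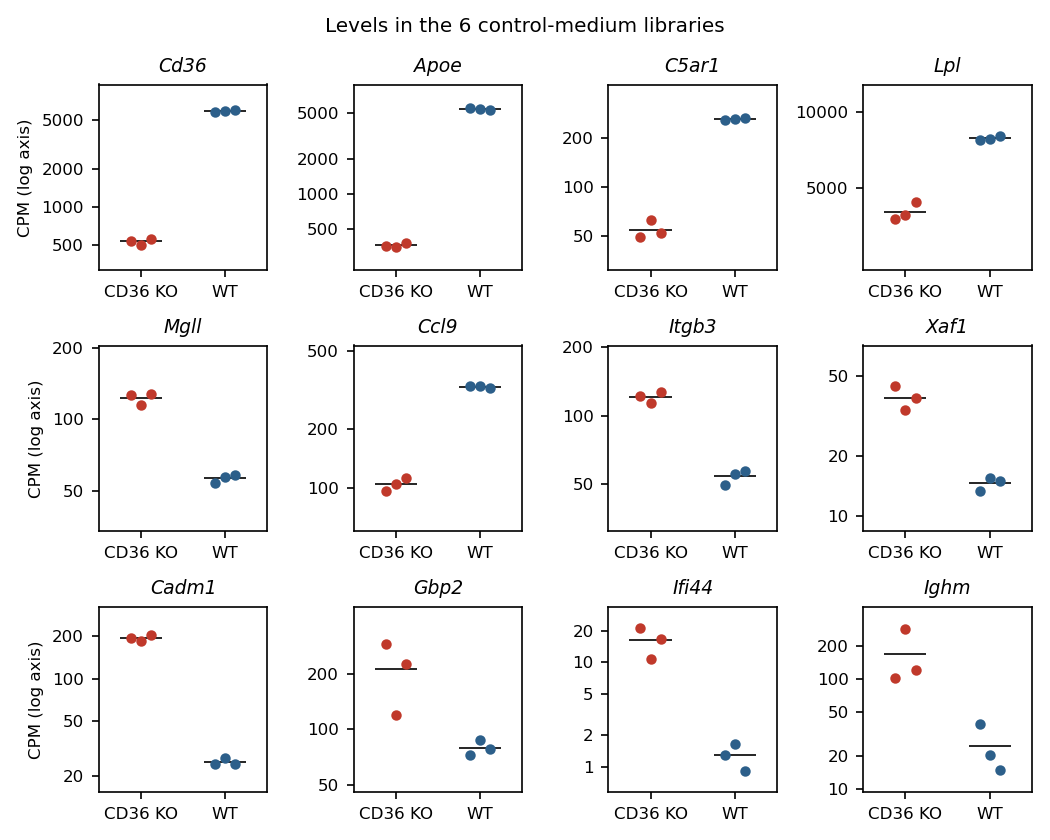
Levels of 12 genes in CPM (log axes, which differ between panels) in the 3 CD36 KO and the 3 WT libraries, with a line at each group's mean. The groups do not overlap in any of the 12 panels; Cd36, Apoe, C5ar1, Lpl and Ccl9 were lower in CD36 KO and the other 7 genes higher.

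Genes that take up, store and burn lipid were mostly lower by small amounts in CD36 KO. Lpl, the secreted lipase that frees fatty acids from triglyceride-rich lipoproteins, had 3743, 3907 and 4383 CPM in CD36 KO, against 7740.1, 7814 and 8082 CPM in WT (log2 fold change -0.97 ± 0.07, SE, edgeR adjusted p = 4.49e-05). Pparg, which encodes the receptor that drives Cd36, fell to 43.7, 40.2 and 44.8 CPM in CD36 KO, against 68.6, 71.5 and 72.7 CPM in WT (log2 fold change -0.72 ± 0.05, SE). Among 14 genes of fatty acid uptake, activation and binding, 7 were lower and 2 higher, with a median log2 fold change of -0.14 beside 0.01 for all genes tested. The 12-library fit called 1 higher and none lower, and 4 were lower without WT replicate 2 and also without WT replicate 3. The largest shift was an increase, in the caveolae gene Cav1, which stromal cells also express, named after its values were seen, with 31.5, 58.98 and 39.7 CPM in CD36 KO, against 21.5, 15.7 and 12.97 CPM in WT (log2 fold change 1.37 ± 0.25, SE), highest in CD36 KO replicate 2. The decreases were smaller, for example -0.41 ± 0.05 (SE) for the lipid carrier gene Scp2 and -0.25 ± 0.04 (SE) for the acyl-CoA synthetase gene Acsl5. Fatty acid oxidation had 13 of 18 genes lower and none higher (2 lower in the 12-library fit), with a median of -0.22. Acadl, an acyl-CoA dehydrogenase, had 70.4, 67.97 and 75.1 CPM in CD36 KO, against 106, 109 and 115 CPM in WT, and Slc25a20, the mitochondrial carnitine carrier, had 20.1, 20.9 and 21.7 CPM in CD36 KO, against 30.1, 30.4 and 30.4 CPM in WT. In both the groups were clearly apart although the fold was under 2.

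Lipid droplet genes split by direction. Plin2, the coat protein of droplets, fell to 1166, 1131 and 1232 CPM in CD36 KO, against 1719.9, 1799.9 and 1848 CPM in WT. Lipa, lysosomal acid lipase, fell to 1948, 1965 and 2068 CPM in CD36 KO, against 2658, 2623 and 2664 CPM in WT. Mgll, the monoglyceride lipase, went the other way, with 127, 115 and 128 CPM in CD36 KO, against 53.7, 56.9 and 58.1 CPM in WT (log2 fold change 1.13 ± 0.05, SE, edgeR adjusted p = 7.14e-06). In all, 7 of 12 tested droplet and lipase genes were lower and 3 higher (3 and 2 in the 12-library fit). Fasn, fatty acid synthase, was also higher (log2 fold change 0.67 ± 0.05, SE).

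Of 25 genes of cholesterol synthesis and uptake, 15 were lower and 1 higher, at a median of -0.16. Hmgcs1, which makes the substrate of the rate-limiting enzyme of the pathway, had 196, 186 and 209.9 CPM in CD36 KO, against 261, 274 and 279.9 CPM in WT (log2 fold change -0.46 ± 0.05, SE), and the demethylase gene Cyp51 had 141, 128 and 148 CPM in CD36 KO, against 177, 182 and 186 CPM in WT (log2 fold change -0.39 ± 0.06, SE). The 1 higher gene, at low level in every library, was at least 2-fold higher, and 9 genes were not called. The 12-library fit called none of the 15 lower genes and 1 higher one. The targets of the cholesterol-sensing receptor LXR showed no common direction: 5 of 15 were higher and 5 lower (0 and 3 in the 12-library fit; 2 to 4 higher without 1 library), and the lower ones include Apoe, Apoc2 and Lpl described above.

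**Figure D4:**
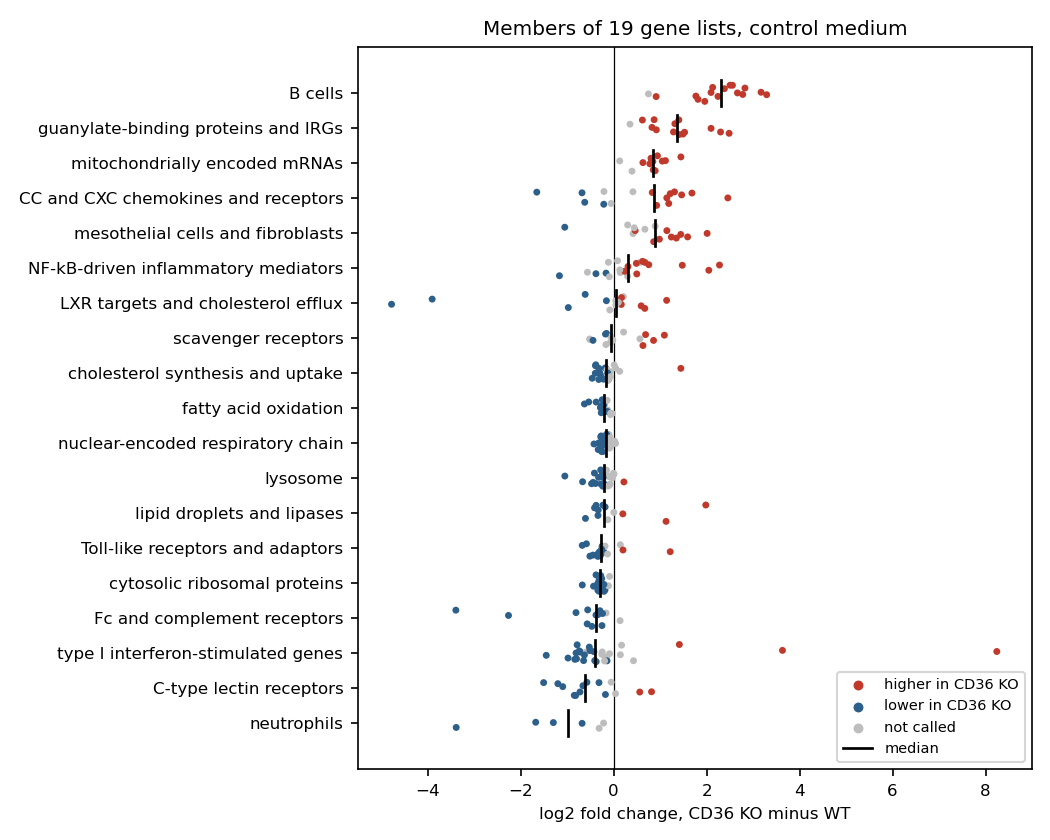
Log2 fold change, CD36 KO minus WT, of the tested members of 19 gene lists, 1 row per list. Red members were higher, blue members lower and grey members not called in CD36 KO, and the black bar is the list's median; B cell markers and guanylate-binding proteins lie furthest right, and C-type lectin receptors and neutrophil markers furthest left.

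Receptors that recognise microbes and opsonised particles were largely lower in CD36 KO. Of 13 Fc and complement receptor genes, 11 were lower and none higher (4 lower in the 12-library fit), at a median of -0.38. Besides the C5a receptors, Itgam, the CD11b chain of complement receptor 3, had 797, 807 and 842 CPM in CD36 KO, against 1197, 1194 and 1234 CPM in WT (log2 fold change -0.57 ± 0.04, SE). Fcgr1, the high-affinity IgG receptor, had 97.2, 81.99 and 95.99 CPM in CD36 KO, against 158, 165 and 159.7 CPM in WT (log2 fold change -0.81 ± 0.06, SE). The 3 CD36 KO libraries were below the 3 WT libraries in both. Toll-like receptors and adaptors had 11 of 16 lower and 2 higher (2 and 0 in the 12-library fit). The nucleic acid sensor genes Tlr8 (log2 fold change -0.67 ± 0.04, SE), Tlr7 (log2 fold change -0.58 ± 0.06, SE) and Tlr13 (log2 fold change -0.51 ± 0.05, SE) were among the lower ones, as was Tlr1, a partner of TLR2 in lipopeptide sensing (log2 fold change -0.44 ± 0.04, SE).

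C-type lectin receptors, which bind sugars on pathogens and dying cells, had a median of -0.62, with 10 of 14 lower and 2 higher (7 and 2 in the 12-library fit). Clec12a, an inhibitory receptor for uric acid crystals, had 135, 127 and 136 CPM in CD36 KO, against 302, 307 and 306 CPM in WT (log2 fold change -1.199 ± 0.04, SE, edgeR adjusted p = 1.43e-06). Clec10a, a galactose-type lectin, had 4.73, 3.57 and 3.95 CPM in CD36 KO, against 10.5, 13.1 and 11.2 CPM in WT (log2 fold change -1.505 ± 0.13, SE). Clec4a1 and Clec4a3, which have near-identical copies and so may share reads, were lower by -0.82 ± 0.07 and -0.72 ± 0.06 (log2, SE).

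Other scavenger receptors did not follow Cd36 as a group. Of 16 tested, 4 were higher (25%) and 3 lower (18.75%), near the 22.4% and 20.7% of all genes (2 and 0 in the 12-library fit). Without WT replicate 3, 1 was lower. Marco, a class A receptor for bacteria and particles, had 21.9, 27.8 and 26.7 CPM in CD36 KO, against 14.9, 17.6 and 16.9 CPM in WT (log2 fold change 0.63 ± 0.10, SE). Scara3 and the oxLDL receptor gene Olr1 had under 8 CPM in every library and were also higher (1.09 ± 0.22 and 0.69 ± 0.14, log2, SE). Mrc1, the mannose receptor, was slightly lower (log2 fold change -0.17 ± 0.04, SE). None of these 16 genes, which leave out Cd36, was at least 2-fold lower.

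Genes that clear dying cells moved in both directions. Itgb3, the β3 chain of the vitronectin receptor, had 122, 113 and 127 CPM in CD36 KO, against 49.7, 55.5 and 57.3 CPM in WT (log2 fold change 1.16 ± 0.06, SE, edgeR adjusted p = 1.55e-05). Mfge8, a bridging protein that links phosphatidylserine to that receptor, had 3061, 2794 and 3087 CPM in CD36 KO, against 2389, 2476 and 2585 CPM in WT (log2 fold change 0.26 ± 0.06, SE). Both were higher in every CD36 KO library than in any WT library. The C1q chains, which opsonise dying cells, were lower, with 665, 619 and 685 CPM in CD36 KO, against 954, 984 and 998 CPM in WT for C1qb (log2 fold change -0.58 ± 0.05, SE). Of 18 efferocytosis genes, 7 were higher and 4 lower (3 and 0 in the 12-library fit). Among the kinases and partners through which CD36 signals, 9 of 18 were lower and 4 higher (2 and 2 in the 12-library fit). Src itself was higher (log2 fold change 0.50 ± 0.05, SE), whereas the exchange factor gene Vav3 (log2 fold change -0.40 ± 0.04, SE) and the tetraspanin gene Cd9 (log2 fold change -0.41 ± 0.05, SE) were lower.

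Chemokine genes moved in both directions and by larger amounts. Of 16 tested, 9 were higher, 7 of them at least 2-fold, and 4 were lower (5 and 1 in the 12-library fit), at a median of 0.88. Ccl9, a macrophage-derived attractant of myeloid cells, had 96.5, 106 and 114 CPM in CD36 KO, against 333, 335 and 325 CPM in WT (log2 fold change -1.65 ± 0.06, SE, edgeR adjusted p = 2.06e-06). Its relative Ccl6 had 914, 706 and 843 CPM in CD36 KO, against 1229.5, 1293 and 1264 CPM in WT (log2 fold change -0.62 ± 0.09, SE). Both were lower in every CD36 KO library than in any WT library. Ccr2, a chemokine receptor that marks monocyte-derived cells, was higher at 25.6, 26.5 and 23.2 CPM in CD36 KO, against 15.9, 12.8 and 10.8 CPM in WT. The ligand gene Ccl12 was near or under 1 CPM in all 6 libraries.

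Of 21 NF-kB-driven inflammatory mediators, 10 were higher and 3 lower (4 and 0 in the 12-library fit). Leaving out 1 library gave 6 to 9 higher, and the 6 were without WT replicate 3. The adhesion molecule gene Vcam1 had 19.8, 29.05 and 22.7 CPM in CD36 KO, against 7.86, 5.17 and 4.14 CPM in WT (log2 fold change 2.05 ± 0.23, SE), with the highest value in CD36 KO replicate 2. Icam1, its relative, had 57.9, 53.3 and 57.9 CPM in CD36 KO, against 39.6, 41.8 and 38.2 CPM in WT (log2 fold change 0.50 ± 0.05, SE). Ccl5, a T cell attractant, was lower at 8.17, 5.44 and 9.01 CPM in CD36 KO, against 16.2, 18.7 and 15.9 CPM in WT (log2 fold change -1.16 ± 0.17, SE), and so was Tnfaip3, a brake on NF-kB (log2 fold change -0.38 ± 0.04, SE).

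Interferon-response genes separated into a part that was higher and a part that was lower in CD36 KO. The promoters of 5 such genes are shown because they differ in holding the letters GAAA, any 2 bases and GAAA again, a core of the element that interferon-activated factors bind. Each run covers 250 bases before to 50 after the RefSeq start on GRCm38.p6, 5′ to 3′ on the gene's strand, and capitals mark matches to those letters on either strand, overlapping matches joined. The windows are chr3:142620413-142620712 (plus strand) for Gbp2, chr3:142530086-142530385 (plus) for Gbp7, chr4:156200769-156201068 (minus) for Isg15, chr19:34640639-34640938 (plus) for Ifit1 and chr3:151749861-151750160 (minus) for Ifi44. Isg15 and Ifit1 were chosen after their values were seen, as lower members with a match.
Gbp2: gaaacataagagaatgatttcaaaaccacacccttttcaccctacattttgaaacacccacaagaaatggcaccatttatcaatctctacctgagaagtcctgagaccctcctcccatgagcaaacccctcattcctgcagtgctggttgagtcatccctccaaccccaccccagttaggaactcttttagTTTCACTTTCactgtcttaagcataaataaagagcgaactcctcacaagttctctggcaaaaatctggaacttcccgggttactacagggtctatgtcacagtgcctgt
Gbp7: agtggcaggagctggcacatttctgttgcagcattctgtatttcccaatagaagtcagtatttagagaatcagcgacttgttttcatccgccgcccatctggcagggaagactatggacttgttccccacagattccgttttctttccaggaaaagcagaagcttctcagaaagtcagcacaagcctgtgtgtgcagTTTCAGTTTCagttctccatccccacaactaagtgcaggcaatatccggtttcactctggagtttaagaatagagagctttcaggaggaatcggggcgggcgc
Isg15: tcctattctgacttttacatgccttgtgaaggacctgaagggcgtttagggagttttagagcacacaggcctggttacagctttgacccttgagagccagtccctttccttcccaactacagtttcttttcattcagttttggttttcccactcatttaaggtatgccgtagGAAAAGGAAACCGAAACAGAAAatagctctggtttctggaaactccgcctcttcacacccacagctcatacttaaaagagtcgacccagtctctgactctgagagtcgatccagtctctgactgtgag
Ifit1: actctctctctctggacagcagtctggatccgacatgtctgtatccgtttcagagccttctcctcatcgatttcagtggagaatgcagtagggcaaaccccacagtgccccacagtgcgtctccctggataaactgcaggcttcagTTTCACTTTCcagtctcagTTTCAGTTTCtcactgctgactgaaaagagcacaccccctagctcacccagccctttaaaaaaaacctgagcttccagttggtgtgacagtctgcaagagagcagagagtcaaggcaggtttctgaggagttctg
Ifi44: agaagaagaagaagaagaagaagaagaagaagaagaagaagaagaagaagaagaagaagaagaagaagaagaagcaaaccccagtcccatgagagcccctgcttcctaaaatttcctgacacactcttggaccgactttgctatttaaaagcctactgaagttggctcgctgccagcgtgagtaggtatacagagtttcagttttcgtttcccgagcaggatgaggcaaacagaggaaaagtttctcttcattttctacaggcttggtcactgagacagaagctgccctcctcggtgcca
The match began 59 bases before the start in Gbp2 and 53 in Gbp7. Isg15 held 3 overlapping matches 78 to 66 bases before its start and Ifit1 held 2, at 104 and 85 bases. Ifi44 held none in this window. Of all 32851 RefSeq promoters of this length, 3.44% held a match. Counted by gene, as the lists below are, 3.99% of 27025 genes had a match in any promoter. All 10 members of the guanylate-binding protein and immunity-related GTPase list that have a promoter in that table held one, and 12 of 22 type I interferon-stimulated genes did. A match is a description of letters only.

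The guanylate-binding proteins and immunity-related GTPases, which attack vacuoles of intracellular pathogens and are best known as targets of interferon-γ, were higher almost throughout. Of 14 tested, 13 were higher, 9 of them at least 2-fold, none was lower, and the median was 1.36 (6 higher in the 12-library fit). Gbp2 had 289.5, 119 and 227 CPM in CD36 KO, against 72.8, 87.5 and 78.5 CPM in WT (log2 fold change 1.41 ± 0.27, SE, edgeR adjusted p = 0.00393), and Gbp7 had 71.7, 36.2 and 58.3 CPM in CD36 KO, against 22.97, 25.5 and 19.5 CPM in WT (log2 fold change 1.29 ± 0.22, SE). Iigp1 had 50.04, 17.4 and 31.3 CPM in CD36 KO, against 7.86, 8.04 and 4.04 CPM in WT (log2 fold change 2.301 ± 0.39, SE), and Igtp had 50.4, 30.3 and 42.7 CPM in CD36 KO, against 21.99, 26.02 and 21.7 CPM in WT (log2 fold change 0.83 ± 0.17, SE). In these 4 genes CD36 KO replicate 2 was the lowest of its group, so the library that was highest for most of the 2-fold genes was not so here. Without that library 14 members were higher, 11 of them at least 2-fold. Members of this family have near-identical copies, and the counts may divide reads between them.

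Type I interferon-stimulated genes tended the other way, with 16 of 30 lower and 3 higher (4 and 3 in the 12-library fit) at a median of -0.39. Isg15, a ubiquitin-like modifier, had 7.99, 5.41 and 7.61 CPM in CD36 KO, against 9.12, 13.1 and 10.6 CPM in WT (log2 fold change -0.65 ± 0.17, SE), and Ifit1, which binds viral RNA ends, had 9.903, 5.67 and 8.48 CPM in CD36 KO, against 11.9, 18.6 and 11.3 CPM in WT (log2 fold change -0.80 ± 0.24, SE). Ifi27l2a had 9.25, 8.38 and 9.01 CPM in CD36 KO, against 27.1, 22.5 and 23.04 CPM in WT (log2 fold change -1.45 ± 0.09, SE, edgeR adjusted p = 2.32e-05). The 3 higher genes were Ifi44, Ifi44l and Xaf1. Ifi44 had 21.2, 10.8 and 16.5 CPM in CD36 KO, against 1.303, 1.67 and 0.915 CPM in WT (log2 fold change 3.63 ± 0.29, SE). Its neighbour Ifi44l had 404 counts over the CD36 KO libraries, against 1 count over the WT libraries, a ratio of 418 with a 95% counting interval of 74.7 to 16564 that covers counting error only. Xaf1, an apoptosis regulator, had 44.4, 33.9 and 38.9 CPM in CD36 KO, against 13.4, 15.6 and 14.96 CPM in WT (log2 fold change 1.41 ± 0.10, SE). The smaller decreases depended on the libraries used, since leaving out 1 library gave from 10 to 20 lower genes, 10 of them without WT replicate 2, and 5 were higher without CD36 KO replicate 2. Without WT replicate 2, the highest WT library of both genes, Isg15 and Ifit1 were not called (edgeR adjusted p = 0.0691 and 0.0910). Both also lost their call in the 12-library fit (edgeR adjusted p = 0.193 and 0.0708) and with the replicate number as a block (edgeR adjusted p = 0.0582 and 0.0765), and Ifit1 did so without CD36 KO replicate 3 (edgeR adjusted p = 0.0616).

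Mitochondrial and ribosomal transcripts differed in opposite directions. Of 13 mRNAs encoded by mitochondrial DNA, 11 were higher in CD36 KO and none lower, at a median of 0.84 (9 higher in the 12-library fit). The gene of cytochrome oxidase subunit 1, mt-Co1, had 4842, 3793 and 4859 CPM in CD36 KO, against 2664, 2727 and 3324 CPM in WT (log2 fold change 0.63 ± 0.12, SE), and mt-Nd1, of complex I, had 1418, 1129 and 1406 CPM in CD36 KO, against 719, 708 and 837 CPM in WT (log2 fold change 0.80 ± 0.10, SE). The nuclear genes of the same complexes were called in the other direction: 19 of 34 were lower (12 without WT replicate 3) and none higher, by small amounts (median -0.17), for example -0.42 ± 0.05 (log2, SE) for Cox7a2. Cytosolic ribosomal protein genes were lower in 25 of 27 and higher in none (median -0.28), with 458, 513 and 501 CPM in CD36 KO, against 783, 773 and 792 CPM in WT for Rplp0 (log2 fold change -0.67 ± 0.05, SE). The 12-library fit called none of these nuclear genes. The labels give no measure of RNA quality, and its part in these shifts was not tested.

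Stress and iron genes moved by modest amounts in both directions. Prdx1, an abundant peroxidase and target of the antioxidant factor NRF2, had 1403, 1405 and 1593 CPM in CD36 KO, against 2482, 2547 and 2635 CPM in WT (log2 fold change -0.80 ± 0.06, SE, edgeR adjusted p = 7.02e-05). The heme-degrading enzyme gene Hmox1 had 373, 416 and 419 CPM in CD36 KO, against 485, 495 and 524 CPM in WT (log2 fold change -0.32 ± 0.06, SE), and the biliverdin reductase gene Blvra, next in that pathway, was lower by -0.51 ± 0.05 (log2, SE). Tfrc, the transferrin receptor, was higher (log2 fold change 0.40 ± 0.05, SE), as was Slc7a11, the cystine importer (log2 fold change 0.67 ± 0.09, SE). Of 25 NRF2 targets 12 were lower and 5 higher (1 and 1 in the 12-library fit; 3 higher without WT replicate 2). Of 17 iron and heme genes 9 were lower and 2 higher (0 and 0 in the 12-library fit), and 3 were lower without WT replicate 2 and also without WT replicate 3. Heat shock and unfolded protein genes had 5 of 18 higher (27.8%) and 4 lower (22.2%), near the 22.4% and 20.7% of all genes. The 12-library fit called 2 higher and 1 lower. Without WT replicate 2 the counts were 3 and 2, and without WT replicate 3 there were 2 higher. Hspa8, a constitutive chaperone among the lower ones, had 873, 906 and 977 CPM in CD36 KO, against 1298, 1316 and 1355 CPM in WT (log2 fold change -0.53 ± 0.05, SE). Glycolysis genes had 4 of 21 higher and 3 lower (0 and 0 in the 12-library fit; 5 lower without CD36 KO replicate 1 or 3), with Hk2, a hexokinase, higher at 114, 105 and 111 CPM in CD36 KO, against 70.1, 71.7 and 80.1 CPM in WT (log2 fold change 0.57 ± 0.06, SE).

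Lysosomal and lipid mediator enzymes were more often lower than higher. Glb1, lysosomal β-galactosidase, had 68.1, 65.9 and 71.3 CPM in CD36 KO, against 142, 139 and 144 CPM in WT (log2 fold change -1.05 ± 0.04, SE, edgeR adjusted p = 3.05e-06), the only one of 27 lysosome genes at least 2-fold lower. The protease gene Ctsh had 291, 265 and 284 CPM in CD36 KO, against 446, 444 and 445 CPM in WT (log2 fold change -0.67 ± 0.05, SE). In all 14 of the 27 were lower and 1 higher (2 and 0 in the 12-library fit). Sphingolipid enzymes had 9 of 17 lower and none higher (2 and 0 in the 12-library fit), including the ceramide-forming desaturase gene Degs1 (log2 fold change -0.54 ± 0.05, SE) and acid ceramidase, Asah1 (log2 fold change -0.50 ± 0.06, SE). Among 16 eicosanoid genes 8 were lower and 5 higher (3 and 1 in the 12-library fit), and 2 were higher without WT replicate 2 or 3. Pla2g7, which hydrolyses oxidized phospholipids, had 288, 227 and 271 CPM in CD36 KO, against 396, 439 and 421 CPM in WT (log2 fold change -0.67 ± 0.08, SE). Ptges, the inducible prostaglandin E synthase, was higher at 13.97, 13.998 and 14.7 CPM in CD36 KO, against 7.75, 8.04 and 6.86 CPM in WT (log2 fold change 0.91 ± 0.08, SE).

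Proteolysis and clotting genes moved in both directions. Plau, urokinase, which activates plasminogen, had 268, 298 and 305 CPM in CD36 KO, against 545, 570.3 and 582 CPM in WT (log2 fold change -0.96 ± 0.06, SE), and the urokinase receptor gene Plaur was lower as given above (log2 fold change -1.17 ± 0.05, SE). Both were lower in every CD36 KO library than in any WT library. Macrophage elastase, Mmp12, had 4955, 4814 and 5184 CPM in CD36 KO, against 9407, 9862 and 9782 CPM in WT (log2 fold change -0.96 ± 0.06, SE). The collagenase genes Mmp8 (13.5, 13.3 and 14.3 CPM in CD36 KO, against 42.6, 46.2 and 42.7 CPM in WT) and Mmp13 (log2 fold change -1.41 ± 0.07, SE), of the same cluster on chromosome 9, were lower too. That stretch was not uniformly lower. Between 5 and 10 Mb of chromosome 9, 7 genes differed at least 2-fold, Mmp3 and Mmp27 among them, and 3 of the 7 were lower and 4 higher. Of 25 matrix and coagulation genes, 10 were higher and 8 lower (5 and 7 in the 12-library fit).

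The largest increases beyond these were in genes of varied function. Cadm1, a cell adhesion molecule, had 195, 185 and 204 CPM in CD36 KO, against 24.6, 26.99 and 24.7 CPM in WT (log2 fold change 2.94 ± 0.06, SE, edgeR adjusted p = 5.10e-08). Cemip, which degrades hyaluronan, had 23.5, 52.996 and 30.2 CPM in CD36 KO, against 5.12, 2.76 and 1.59 CPM in WT (log2 fold change 3.47 ± 0.41, SE), and Adam23, an inactive member of the ADAM metalloprotease family, had 17.5, 28.5 and 19.8 CPM in CD36 KO, against 4.44, 2.82 and 2.099 CPM in WT (log2 fold change 2.799 ± 0.27, SE). Cadm1 was even across the CD36 KO libraries. Cemip and Adam23 were highest in CD36 KO replicate 2 and, within WT, in replicate 1, as the stromal markers described below were. Ankrd1, a target of the YAP coactivator, had 10.6, 16.5 and 11.9 CPM in CD36 KO, against 2.21, 1.12 and 1.16 CPM in WT (log2 fold change 3.101 ± 0.27, SE). Ankrd1 too was highest in these 2 libraries of its groups. Eno1b, a near-identical copy of the main enolase gene, had 39.3, 36.5 and 42.5 CPM in CD36 KO, against 1.09, 1.01 and 1.27 CPM in WT (log2 fold change 5.13 ± 0.10, SE), and the counts cannot say how reads were divided between the copies.

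Among the largest decreases were surface and signalling genes. Cd72, a C-type lectin that inhibits B cell and macrophage signalling, had 15.3, 13.4 and 12.3 CPM in CD36 KO, against 55.3, 63.9 and 61.1 CPM in WT (log2 fold change -2.14 ± 0.09, SE, edgeR adjusted p = 3.08e-06). Vsig8, an immunoglobulin-domain protein, had 11.3, 11.2 and 12.4 CPM in CD36 KO, against 53.7, 55.5 and 60.6 CPM in WT (log2 fold change -2.28 ± 0.07, SE). Tnip3, an inhibitor of NF-kB signalling, had 4.49, 4.86 and 4.96 CPM in CD36 KO, against 18.1, 19.1 and 18.4 CPM in WT (log2 fold change -1.96 ± 0.07, SE). Cd72 is also a B cell gene, and it moved opposite to the B cell markers described next. Efr3b (log2 fold change -1.94 ± 0.06, SE), Zfyve28 (log2 fold change -1.81 ± 0.13, SE) and Pcp4l1 (log2 fold change -2.32 ± 0.10, SE) fell too.

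Markers of other peritoneal cells differed between the genotypes. In bulk RNA, fewer cells of a type and less RNA per cell cannot be told apart, and the part of these cells in the differences above was not tested. B cell markers were higher in CD36 KO for 15 of 16 genes, 14 of them at least 2-fold, and none was lower (14 higher in the 12-library fit). Their summed level was 172, 459 and 204 CPM in CD36 KO, against 60.6, 34.8 and 25.1 CPM in WT, highest in replicate 2. Ighm, the IgM heavy chain, gave most of that sum, with 102, 287 and 119.7 CPM in CD36 KO, against 38.8, 20.1 and 14.7 CPM in WT (log2 fold change 2.78 ± 0.47, SE). The B cell surface gene Ms4a1 was low but even between replicates, with 5.25, 5.49 and 5.804 CPM in CD36 KO, against 0.977, 1.04 and 0.781 CPM in WT. The immunoglobulin genes Ighg2b and Igkc were highest in replicate 2, with 3.23, 46.2 and 2.24 CPM and 31.3, 128 and 38.5 CPM in the CD36 KO libraries, against 0.0233, 0.3804 and 0 CPM and 11.9, 4.72 and 3.23 CPM in WT. Both were also higher in CD36 KO replicates 1 and 3 than in any WT library.

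Stromal markers followed the same order of libraries. The 15 mesothelial and fibroblast genes summed to 2175, 3697 and 2471 CPM in CD36 KO, against 1429.5, 1025 and 843 CPM in WT, and 9 were higher and 1 lower (4 and 0 in the 12-library fit). The collagen gene Col1a1 had 803, 1381 and 904 CPM in CD36 KO, against 424, 325 and 275 CPM in WT (log2 fold change 1.59 ± 0.22, SE), and Col1a2 had 888, 1421 and 1013 CPM in CD36 KO, against 546, 408 and 349 CPM in WT (log2 fold change 1.35 ± 0.20, SE). Both were highest in CD36 KO replicate 2 and, within WT, in replicate 1. Without CD36 KO replicate 2, 6 of the 15 were higher, and without WT replicate 2, 5. Fscn1, which marks mature dendritic cells and is also made by stromal cells, had 122, 218 and 153 CPM in CD36 KO, against 59.4, 43.2 and 34.05 CPM in WT (log2 fold change 1.85 ± 0.24, SE). Dendritic cell markers were higher in 6 of 8 tested and mast cell markers in 6 of 7, none lower (4 of each higher in the 12-library fit). Summed mast cell markers were low in all libraries, with 10.1, 10.03 and 10.6 CPM in CD36 KO, against 4.14, 4.39 and 3.26 CPM in WT.

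Neutrophil markers were lower in 4 of 6 tested (3 in the 12-library fit), with summed levels of 87.2, 67.2 and 76.2 CPM in CD36 KO, against 137, 146 and 146 CPM in WT. Most of that sum came from Csf3r, which macrophages also express, at 66.1, 47.5 and 54.3 CPM in CD36 KO, against 84.7, 91.3 and 92.6 CPM in WT (log2 fold change -0.68 ± 0.10, SE). Much of the rest came from Mmp8, whose lower levels in CD36 KO are given above with the cluster on chromosome 9. Retnlg, a defining neutrophil gene, was near 0 with 0.0788, 0 and 0.102 CPM in CD36 KO, against 0.931, 0.558 and 0.484 CPM in WT. No erythroid marker of 7 passed the filter on low counts. Of 4 tested eosinophil markers, 2 were lower and 1 higher (1 and 1 in the 12-library fit), at a median of -0.02. The lower ones were Ccr3, a chemokine receptor gene, with 0.289, 0.368 and 0.331 CPM in CD36 KO, against 1.68, 1.52 and 1.18 CPM in WT, and Siglecf, a gene that macrophages of some tissues also express (log2 fold change -0.23 ± 0.06, SE). The higher one was the interleukin-5 receptor gene Il5ra, with 0.263, 0.446 and 0.382 CPM in CD36 KO, against 0.0931, 0.152 and 0.135 CPM in WT.

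**Figure D5:**
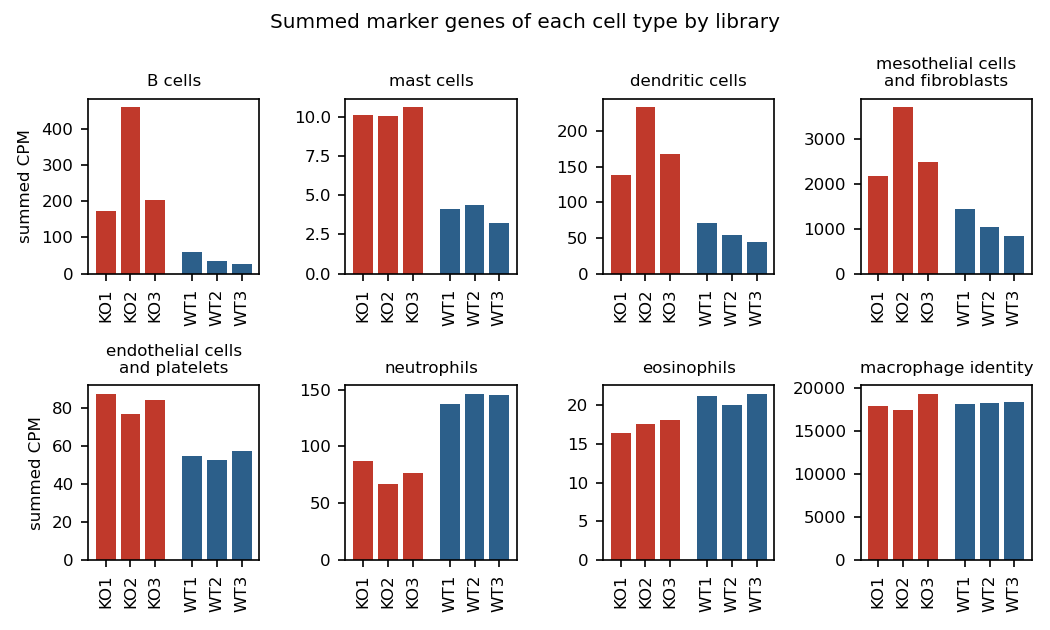
Summed CPM of the marker genes of 8 cell types in each library, CD36 KO replicates 1 to 3 in red left of WT replicates 1 to 3 in blue, with axes that start at 0. B cell, dendritic cell and mesothelial or fibroblast sums are highest in CD36 KO replicate 2, neutrophil sums are lower in CD36 KO, and macrophage sums are similar in all 6 libraries.

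Defining macrophage markers were abundant in all libraries. Summed over 14 genes they gave 17974, 17499 and 19348 CPM in CD36 KO, against 18102, 18284 and 18405 CPM in WT. Yet 9 of the 14 were lower and none higher (2 lower in the 12-library fit), while Lyz2, lysozyme, carried most of the sum with 13297, 12986 and 14566 CPM in CD36 KO, against 12246, 12249 and 12352 CPM in WT. The gene of the surface antigen F4/80, Adgre1 (Emr1 in the count table), had 289, 299 and 297 CPM in CD36 KO, against 538, 535 and 529 CPM in WT (log2 fold change -0.86 ± 0.04, SE, edgeR adjusted p = 5.03e-06). Csf1r, the receptor for the macrophage growth factor, had 652, 669.6 and 677 CPM in CD36 KO, against 929, 952 and 948 CPM in WT (log2 fold change -0.50 ± 0.04, SE).

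The peritoneal subsets gave a mixed picture. Of 21 genes of large peritoneal macrophages, 10 were higher and 3 lower (3 and 1 in the 12-library fit; 1 lower without WT replicate 2). Adgre1, described above, is on this list and is one of the 3 lower genes. Timd4, a phosphatidylserine receptor of resident cells, was low in every library with 1.23, 1.497 and 1.68 CPM in CD36 KO, against 0.163, 0.203 and 0.188 CPM in WT (log2 fold change 2.98 ± 0.25, SE). Fibronectin, Fn1, had 2906, 4049 and 3172 CPM in CD36 KO, against 2062, 1717 and 1717 CPM in WT (log2 fold change 0.88 ± 0.13, SE). Timd4 was even between replicates. Fn1 was highest in CD36 KO replicate 2 and, within WT, in replicate 1, as the collagen genes above were. Small peritoneal macrophage and MHC class II genes were lower in 9 of 14 and higher in 2 (2 and 0 in the 12-library fit). Ccr2, described above with the chemokine genes, is on this list and is one of the 2 higher genes. Cd74, the class II invariant chain, had 399, 259.9 and 315 CPM in CD36 KO, against 514, 629 and 592 CPM in WT (log2 fold change -0.83 ± 0.14, SE), and the folate receptor gene Folr2 had 28.6, 34.6 and 30.9 CPM in CD36 KO, against 60.2, 58.01 and 57.4 CPM in WT (log2 fold change -0.90 ± 0.07, SE).

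Of 22 proliferation genes, 10 were higher and 1 lower (2 and 1 in the 12-library fit). Their summed level was 711, 961 and 814 CPM in CD36 KO, against 854, 802 and 811 CPM in WT, and these ranges overlap. Leaving out 1 library gave 4 to 15 higher, with 6 without CD36 KO replicate 3, 5 without WT replicate 2 and 4 without WT replicate 3. Top2a, a topoisomerase of dividing cells, had 48.7, 76.4 and 60.9 CPM in CD36 KO, against 43.6, 39.4 and 37.8 CPM in WT (log2 fold change 0.62 ± 0.14, SE), again highest in CD36 KO replicate 2. The 1 lower gene was Pcna, the replication clamp, with 176, 187 and 193 CPM in CD36 KO, against 306, 305 and 321 CPM in WT (log2 fold change -0.75 ± 0.05, SE). Pcna thus moved opposite to the 10 higher genes, and the other 11 were not called.

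Surface receptors of inhibition and adhesion were also changed. Sirpa, which receives the signal of CD47 that spares cells from phagocytosis, had 1745, 1646 and 1736 CPM in CD36 KO, against 2253, 2326 and 2347 CPM in WT (log2 fold change -0.43 ± 0.05, SE), and Cd47 itself had 119, 110.1 and 119 CPM in CD36 KO, against 165, 164 and 161 CPM in WT (log2 fold change -0.49 ± 0.04, SE). Itga6, the laminin-binding integrin α6, had 119.7, 130.4 and 125 CPM in CD36 KO, against 274, 257 and 260.4 CPM in WT (log2 fold change -1.08 ± 0.05, SE), opposite to Itgb3. Siglecg, an inhibitory sialic acid receptor that B cells also carry, had 5.25, 4.94 and 4.73 CPM in CD36 KO, against 0.838, 0.862 and 1.08 CPM in WT (log2 fold change 2.43 ± 0.15, SE). Of the nucleotide receptors, 6 of 13 were lower and 1 higher (0 and 0 in the 12-library fit), among them P2rx7, the ATP-gated channel of inflammasome activation (log2 fold change -0.37 ± 0.04, SE).

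Several genes that vary between mouse strains and substrains differed, although both genotypes carry the same strain label. Nnt, a mitochondrial transhydrogenase that is disrupted in the C57BL/6J substrain, had 36.98, 37.6 and 37.9 CPM in CD36 KO, against 22.3, 23.1 and 21.9 CPM in WT (log2 fold change 0.74 ± 0.05, SE, edgeR adjusted p = 2.34e-05). Glo1, glyoxalase, which varies in copy number between strains, had 52.7, 59.7 and 59.9 CPM in CD36 KO, against 30.3, 28.1 and 30.3 CPM in WT (log2 fold change 0.96 ± 0.06, SE). Nlrp1a, an inflammasome sensor, had 1.63, 2.07 and 1.58 CPM in CD36 KO, against 7.91, 7.61 and 7.698 CPM in WT (log2 fold change -2.14 ± 0.13, SE), and its relative Nlrp1b had 17.1, 15.8 and 16.2 CPM in CD36 KO, against 10.96, 12.5 and 10.5 CPM in WT (log2 fold change 0.53 ± 0.08, SE). Wdfy1, an endosomal adaptor, was higher (log2 fold change 0.80 ± 0.09, SE). Of 13 tested genes of this kind 4 were higher (30.8%) and 3 lower (23.1%), close to the 22.4% and 20.7% of all genes (3 and 1 in the 12-library fit; 1 lower without WT replicate 2), the other lower ones being Mx1 (log2 fold change -0.81 ± 0.27, SE) and Naip2 (log2 fold change -0.16 ± 0.04, SE). Substrain and genotype cannot be told apart with these labels. All 6 libraries had reads from Y-linked genes, and Xist had at most 2 counts in any library, so no library stood apart by sex. Eif2s3y, a Y-linked gene, was nonetheless lower at 35.5, 30.8 and 32.6 CPM in CD36 KO, against 56.9, 58.7 and 57.1 CPM in WT (log2 fold change -0.81 ± 0.06, SE). The other 3 Y-linked genes tested, Ddx3y, Kdm5d and Uty, were not called, although all 4 were lower without CD36 KO replicate 1.

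The 6 oxLDL libraries, none of which enter the comparison above, showed the same genotype difference in part. There 1259 of 15266 genes were called (8.25%), 905 higher (5.93%) and 354 lower (2.32%) in CD36 KO, with a wider spread between libraries. Of 6503 control-medium calls tested there, 1017 (15.6%) were called in the same direction and 18 in the opposite one. Read from the other side, 80.8% of all 1259 oxLDL calls had been called the same way in control medium, where 1213 of them were tested. Of 1364 genes at least 2-fold different in control medium, 1296 (95.01%) had the same sign under oxLDL and 628 (46.0%) were called the same way. Under oxLDL the genotype difference was -3.95 ± 0.30 for Cd36, -4.51 ± 0.40 for Apoe, -2.54 ± 0.16 for C5ar1 and 3.06 ± 0.19 for Cadm1 (log2, SE), all called. For Gbp2 it was -0.64 ± 0.27 and for Iigp1 -0.15 ± 0.36 (log2, SE), neither called, and no member of that list was called in the same direction under oxLDL. The test of the difference between the media, fitted to 12 libraries, called 113 of 16281 genes (0.694%). Gbp2 and Iigp1 were not among these genes, so a loss of their genotype difference under oxLDL was not shown.

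The authors' deposited table for this comparison lists 13207 genes, 5494 of them at a false discovery rate under 0.05, with 3066 above and 2428 below 0 in log2 fold change. Of those 5494 genes in the authors' deposited table, 5238 were called here in the same direction. The authors' deposited table gives -3.45 for Cd36 and -3.88 for Apoe.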

How the data were processed

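RNA was sequenced from mouse peritoneal macrophages, and the authors deposited whole-number counts per gene without normalization for 12 libraries. FastQC and the mm10 build are named in the submitters' processing notes, and the aligner, counter, annotation and strand setting were not given in the sources used here. The RPKM values beside the counts were made by the authors and no printed value uses them. The deposited result table, with log2 fold changes and false discovery rates (q-values), was made by the authors and is only quoted. From the counts of the 6 control-medium libraries, genes were filtered with filterByExpr (minimum count 10, total 15), scaled by TMM and tested with edgeR 4.0.16 quasi-likelihood F tests in R 4.3.3, with Benjamini-Hochberg adjustment over all 15612 genes tested. A gene was called at an adjusted p under 0.05. The SE of a fold change is its size divided by the square root of F. CPM are TMM-scaled. The fit was tested on simulated data.

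Coordinates are those of GENCODE M21 (GRCm38), matched by gene ID for 15455 of the genes tested, and promoter sequences are from RefSeq. Named genes were Cd36, the 12 largest changes in each direction among called genes with at least 5 CPM and no overlap, in each of 49 lists the 4 called members with the smallest p and the most abundant one, up to 8 called genes within 10 Mb of Cd36, and detected strain-variable and sex-linked genes. Others are said to have been chosen later, and not every gene so chosen is printed. The members and lists were chosen with earlier results of these data known. The series holds a library, WT oxLDL replicate 1, that stands apart from its group, so fits with 12 and with 11 libraries are alternatives, beside DESeq2 1.42.0 and limma 3.58.1 (voom). No library pair of a group agreed within sampling noise (chi-square per degree of freedom 2.85 to 20.9).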

Additional observations from a re-analysis of the deposited data

Results flagged for a closer look

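For 13 of the genes named above, the genotype difference in control medium differed from that under oxLDL by the test of the difference in the 12-library edgeR fit. Values are the log2 fold change, CD36 KO minus WT, in control medium minus that under oxLDL, with SE.

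A pair of protease and inflammasome genes led. Nlrp1b gave -3.55 ± 0.28 (edgeR adjusted p = 6.18e-04), with 0.53 ± 0.08 in control medium and 4.101 ± 0.30 under oxLDL. Plau gave -1.52 ± 0.16 (edgeR adjusted p = 0.00189), being lower in CD36 KO in control medium (-0.96 ± 0.06) and not called under oxLDL (0.56 ± 0.16).

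The chemokine gene Ccl12, at low level, gave 4.66 ± 0.59 (edgeR adjusted p = 0.00401). Its log2 fold change was 2.46 ± 0.24 in control medium and -2.21 ± 0.45 under oxLDL, both called. The caveolae gene Cav1 gave 2.76 ± 0.34 (edgeR adjusted p = 0.00378), with 1.37 ± 0.25 in control medium and -1.38 ± 0.18 under oxLDL, both called. Ptges gave 1.52 ± 0.20, Timd4 2.44 ± 0.33 and Vcam1 1.94 ± 0.38; these were higher in CD36 KO in control medium and not called under oxLDL.

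Receptor genes differed mainly in size. Fcgr1 gave 2.28 ± 0.38, Clec4a1 0.99 ± 0.16 and Clec4a3 0.94 ± 0.17, each lower in CD36 KO in both media and more so under oxLDL. Itgb3 gave -1.304 ± 0.24, higher in CD36 KO in both media. Ptgir gave -0.98 ± 0.15, with -1.56 in control medium and -0.58 ± 0.16 under oxLDL. The kinase gene Src gave 0.79 ± 0.14 and changed sign, with 0.50 in control medium and -0.29 ± 0.16 under oxLDL. Neither of these 2 genes was called under oxLDL. Without WT oxLDL replicate 1 the differences of all 13 genes kept their sign and were called. With the replicate number as a block, 7 of the 13 were not called.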

How the results depend on the processing

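Cd36 kept its direction and its call in every alternative run (-3.52 to -3.43 without 1 library). With all 12 libraries in the fit, 1863 genes were called, 1452 higher and 411 lower, 13 of them near Cd36, and 1800 were calls of the 6-library fit in the same direction (26.7% of its calls). With 11 libraries, 2004 genes were lower, 3113 control-medium calls were also called under oxLDL and 1154 genes differed between media. At the 2-fold threshold 1552 genes were called, 1393 higher and 159 lower, 13 near Cd36 and 628 also under oxLDL. DESeq2 gave 1663 calls shared with oxLDL and 514 differing between media, and removal of the trend with gene length gave 1601 and 232. Windows of 5 and 20 Mb around Cd36 held 9 called genes of 28 tested (32.1%) and 98 of 208 (47.1%), beside 43.1% of all genes. Leaving out 1 library gave 4772 to 6526 calls, 2458 to 3266 higher and 2314 to 3287 lower, 26 to 38 near Cd36, 900 to 1042 shared with oxLDL and 42 to 74 differing between media; 4772 was without WT replicate 2. The cause was not tested.

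The replicate numbers did not pair the libraries: deviations of same-numbered libraries correlated at -0.62, -0.25 and 0.20. With the replicate number as a block, 5209 genes were called in control medium, none of them also under oxLDL (0), and 45 differed between media. Cd36 was called in control medium in that fit (edgeR adjusted p = 1.08e-05) but is not among genes called in both media. The 0 is therefore no measure of how many genes differ in both media.

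Of 131 named genes tested beside Cd36, 40 lost their call in the 12-library fit and none changed sign under any alternative. Mx1 lost its call without any 1 of 5 libraries, Naip2 without WT replicate 2 and Mrc1 without WT replicate 3. Siglecf lost its call without WT replicate 1 or 3. DESeq2 did not call Mx1 or Il5ra, and voom did not call Ighg2b. Depth limits the genes under 1 CPM, for which a library holds few reads.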
